A study of Mus musculus with 12 samples.

Results

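Aminoacyl-tRNA synthetases join each amino acid to its tRNA, so that the ribosome receives charged tRNAs. Animal cells carry separate sets for the cytosol and for mitochondria, all encoded in the nucleus, and the mitochondrial genes usually bear the suffix 2. Glycyl-tRNA synthetase (Gars) and lysyl-tRNA synthetase (Kars) each serve both compartments from a single gene, and the bifunctional Eprs charges both glutamate and proline in the cytosol. Many of the cytosolic genes belong to the set induced by the transcription factor ATF4 in the integrated stress response.

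The genes described here are 40 listed symbols: 20 cytosolic synthetases, 16 mitochondrial synthetases and 4 others, namely the scaffold proteins Aimp1, Aimp2 and Eef1e1 of the multisynthetase complex and the second cytosolic threonyl enzyme Tarsl2. They were chosen by name, and 40 of 40 were found among the 44450 loci of the files. Total RNA of hearts from 11-week-old C57BL/6N mice was sequenced in 3 control and 3 knockout libraries. Controls were Mrpp3 loxP/loxP, and knockouts were Mrpp3 loxP/loxP and also +/Ckmm, the Cre transgene of the muscle creatine kinase promoter. Every animal therefore carried the floxed alleles, and an effect of Cre itself cannot be told apart from loss of the gene. Cre from this promoter acts in striated muscle, so the other cells of the heart keep the gene. MRPP3 is the cutting enzyme within mitochondrial RNase P, which frees the 5′ ends of tRNAs from the transcripts of mitochondrial DNA, and the tRNAs so freed are substrates of the mitochondrial synthetases. The comparison asks how RNA of these enzymes differs between knockout and control hearts. Whether separate animals gave the libraries is not in the labels, and p-values therefore speak only of the spread among these libraries. A further 6 libraries of mitochondrial RNA ends (PARE) were not analysed here.

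Values are FPKM, fragments counted per length of transcript and per size of library, a scale on which levels of different genes can be compared. All 40 members passed the filter of at least 1 FPKM in at least 3 libraries, as did 12181 loci in all. Changes compare knockout with control as log2(FPKM + 0.5), so those of low genes come out too small, and a gene is said to rise or fall where limma gave an adjusted p under 0.05 over all 12181 loci. Judged by the steps between low values, the knockouts were sequenced 2.06 to 2.57 times as deeply as control replicate 1, and the other controls 1.32 and 1.35 times. Depth thus differed with genotype, and its part in the results was not tested. Read totals were unknown, so no counting interval could be set. The Mrpp3 gene, now called Prorp and listed as 1110008L16Rik, stood at 3.49, 2.64 and 3.23 FPKM in controls and at 0.441, 0.701 and 0.555 FPKM in knockouts, with no overlap (log2 change -1.77, SE 0.17, adjusted p by limma = 0.00063). Of the ventricular muscle markers 7 of 8 fell and none rose, with summed levels of 34513 to 39734 FPKM in controls and 7611 to 16601 in knockouts. Macrophage markers rose for 5 of 7 (summed 122 to 131 against 174 to 191 FPKM), and fibroblast markers for 4 of 6 (summed 307 to 382 against 323 to 529.8 FPKM). The fibroblast markers that rose were Col1a1, Col1a2, Col3a1 and Tcf21. Dcn went from 265, 229 and 217 FPKM in controls to 202, 186 and 181 in knockouts. Pdgfra had a log2 change of -0.26, and neither Dcn nor Pdgfra passed. Over all loci tested 16.1% rose and 19.5% fell. Of the endothelial markers 0 of 5 passed the test. Knockout replicate 2 stood apart in atrial markers (summed 3806 FPKM against 125 and 10.6 in the other knockouts) and in red blood cell markers (summed 21895 against 622 and 2009.5). The atrial sums of controls were 7.37, 2.30 and 2.10 FPKM, below every knockout. Of the 3 atrial markers that could be tested only Dkk3 rose (limma adjusted p = 0.033). Skeletal muscle markers summed to at most 4.04 FPKM in any library, and Myh4 was at 0 in all 6. In whole hearts fewer cells of a type and less RNA per cell cannot be told apart.

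RNA of the cytosolic enzymes rose broadly in the knockout hearts, while none of the mitochondrial enzymes rose and 3 fell. Of the 20 cytosolic synthetases 16 rose and 0 fell, beside 16.1% of all loci higher and 19.5% lower (35.7% in either direction). On the log2(FPKM + 0.5) scale 14 of them rose at least 2-fold, beside 5.80% of all loci. No mitochondrial enzyme fell as much as 2-fold on that scale, beside 6.76%. Cars2 came nearest, at 0.517 of the control level, with mean FPKM of 13.6 in controls and 6.78 in knockouts. The median log2 change of the cytosolic set was 1.60, against -0.020 over all loci tested. Of the 16 mitochondrial synthetases 0 rose, 3 fell and 13 did not pass the limma test, with a median of -0.35. The 3 of 16 that fell are about the share of all loci that fell, 19.5%. At an unadjusted limma p under 0.05, 0 of the 16 were higher and 5 lower. The share of all loci lower at that threshold was not counted. It is no smaller than the 19.5% that fell after adjustment, so nothing is read from this count. Scaling each library to one summed FPKM moved the median of all loci from -0.020 to 0.20, and moved the medians of both sets likewise, to 1.84 and -0.16. After that scaling 3229 loci rose and 1400 fell, against 1966 and 2377 without it, and 1 mitochondrial enzyme fell. Summed over the 20 cytosolic genes, the level was 340.4, 357 and 361 FPKM in controls and 1036, 1006 and 1396 FPKM in knockouts. For the 16 mitochondrial genes it was 151, 157 and 164 FPKM in controls and 128, 106 and 140.3 FPKM in knockouts. In FPKM as deposited, every knockout library thus lay above every control in the cytosolic sum and below every control in the mitochondrial sum. The summed FPKM of all loci was 523499, 574944 and 589995 in controls. In knockouts it was 466993, 456493 and 516068, lower in each than in any control. The cytosolic and mitochondrial sums were not rescaled to it, and its part in the lower mitochondrial sum was not tested. Without knockout replicate 2, the library with the highest atrial and blood marker sums, 16 cytosolic enzymes rose and 4 mitochondrial enzymes fell. The part of the marker differences given above in these counts was not tested.

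**Figure D1:**
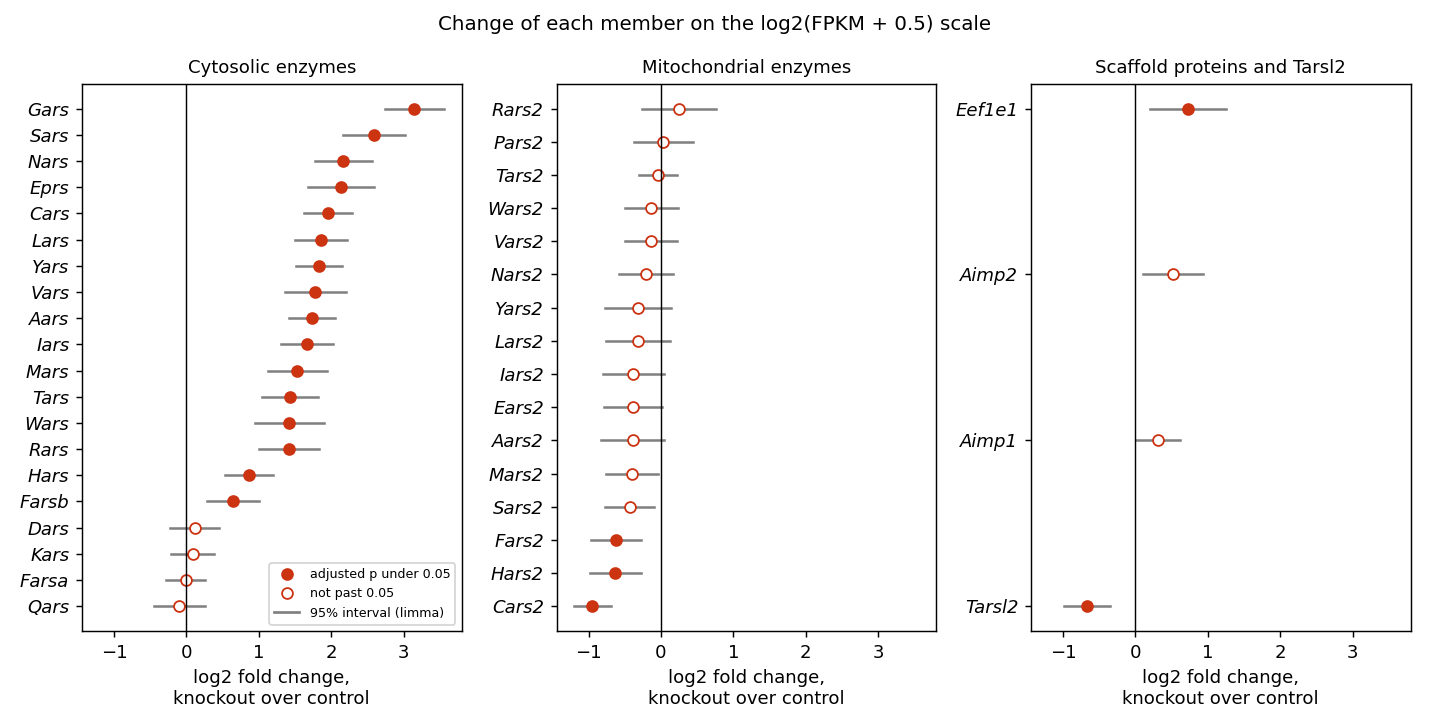
The log2 fold change of each of the 40 members (horizontal axis, knockout against control, from log2(FPKM + 0.5)), with the 95% interval from limma as a line and a filled point where the adjusted p was under 0.05. Cytosolic enzymes run from -0.10 (Qars) to 3.15 (Gars), and mitochondrial enzymes from -0.95 (Cars2) to 0.24 (Rars2).

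Since 16 of the 20 cytosolic enzymes rose together, their promoters were read in the RefSeq windows of GRCm38.p6, which run from 250 bases before to 50 bases after an annotated start. Windows were matched for 31 of the 40 members, 13 cytosolic and 14 mitochondrial. The motif TGATGNAA was searched on both strands. It is the core of the composite C/EBP-ATF element, bound by ATF4 with a C/EBP partner, and reads TTNCATCA on the other strand. It was found in 5 of the 9 cytosolic genes with a window that rose (Aars, Gars, Iars, Tars and Yars). None was found in the 4 cytosolic genes with a window that did not pass, in the 14 mitochondrial genes or in the other 4 members with one. Of all 27025 genes with a window 4.51% held it, and of the 8132 such genes among the loci tested 2.72%. The cAMP response element TGACGTCA, which shares no 8-letter match with it, was in 0 of the member windows, in 2.03% of all genes with a window and in 3.57% of those among the loci tested. A match describes letters and not binding, and genes can have other starts. One match in each of the 5 genes is shown with 11 bases on either side, written along the gene 5′ to 3′, with the match in capitals.
Gars (chr6:55037960-55037989, + strand): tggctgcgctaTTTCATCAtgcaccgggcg
Tars (chr15:11399655-11399684, - strand): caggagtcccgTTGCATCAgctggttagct
Aars (chr8:111033840-111033869, + strand): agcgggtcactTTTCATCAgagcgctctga
Iars (chr13:49682126-49682155, + strand): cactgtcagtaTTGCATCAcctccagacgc
Yars (chr4:129189895-129189924, + strand): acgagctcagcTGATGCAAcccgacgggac

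Not every match found is shown. In Gars the first base of the match shown lies 30 bases before the start, 15 before it in Tars and 9 after it in Aars. In Iars and Yars it lies 7 and 3 bases after the start. Of the matches shown, those of Tars, Iars and Yars carry the letters TTGCATCA or their reverse complement, and those of Gars and Aars read TTTCATCA. The 250 bases before the start are shown whole for Gars, the largest rise and a gene with a match, and for Sars, the next largest and one without.
Gars (chr6:55037751-55038000, + strand): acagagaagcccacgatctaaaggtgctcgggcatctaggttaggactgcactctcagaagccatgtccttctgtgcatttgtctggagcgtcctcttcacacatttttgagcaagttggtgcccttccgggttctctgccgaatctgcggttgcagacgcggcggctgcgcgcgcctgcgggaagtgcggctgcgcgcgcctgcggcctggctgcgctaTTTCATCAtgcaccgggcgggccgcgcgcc
Sars (chr3:108445260-108445509, - strand): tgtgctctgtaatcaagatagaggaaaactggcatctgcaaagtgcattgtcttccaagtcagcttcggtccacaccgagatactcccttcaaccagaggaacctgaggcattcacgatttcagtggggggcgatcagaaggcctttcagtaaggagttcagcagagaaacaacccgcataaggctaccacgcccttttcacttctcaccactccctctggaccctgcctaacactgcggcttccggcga
The Gars stretch holds its match near the right end, and the Sars stretch holds neither motif, although Sars rose to 6.02 times the control level on the log2(FPKM + 0.5) scale.

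Gars, which makes glycyl-tRNA for both cytosol and mitochondria and whose upstream stretch with its match is printed above, had the largest rise of any member. It lies on chromosome 6, 55038001 to 55079504 of GRCm38, and is locus XLOC_031065 of the files. Gars stood at 20.2, 18.8 and 21.3 FPKM in controls and 152, 170.1 and 233 FPKM in knockouts. Single knockout libraries were 7.58 to 11.6 times the control mean, and the rise passed the test (log2 change 3.15, SE 0.18, adjusted p by limma = 9.1e-05). It was the seventh among the 20 cytosolic genes in control hearts and had the highest mean in knockouts, where Gars and Sars differed by less than their spread. Kars, the other gene that serves both compartments, showed no such rise. Kars (locus XLOC_037795, chromosome 8, 111993439 to 112011354) stood at 37.6, 37.9 and 41.7 FPKM in controls and 41.5, 37.3 and 45.8 FPKM in knockouts, and the groups overlapped. Its change was 0.084 (95% interval -0.21 to 0.38, limma adjusted p = 0.63). Kars passed only when libraries were scaled to one sum, at a log2 fold change of 0.31, or 0.35 with mtDNA loci removed first, and its adjusted p over the 16 alternatives was 0.044 to 0.95. Highest of the cytosolic genes in controls, at 39.1 ± 2.25 FPKM (SD, n = 3), it ranked eighth in knockouts, at 41.5 ± 4.28.

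The next largest rises were of the free-standing enzymes Sars and Nars and of Eprs. Sars charges serine, and the same enzyme also puts serine on the separate tRNA on which selenocysteine is made. Sars stood at 24.8, 29.0 and 31.2 FPKM in controls and 168, 142 and 216 FPKM in knockouts (log2 change 2.59, SE 0.18, adjusted p by limma = 0.00024). Nars, for asparagine, stood at 20.6, 23.2 and 23.0 FPKM and 93.6, 87.4 and 129 FPKM (log2 change 2.17, SE 0.17, adjusted p by limma = 0.00034). Eprs stood at 32.1, 32.8 and 34.0 FPKM and 126, 125 and 198 FPKM (log2 change 2.13, SE 0.19, adjusted p by limma = 0.00050). In all 3 the knockout libraries lay far above the controls, and knockout replicate 3 was the highest.

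Behind them came 6 enzymes that rose between 3.17-fold and 3.89-fold on the log2(FPKM + 0.5) scale. Cars, for cysteine, was the least abundant cytosolic enzyme in controls. It stood at 6.29, 6.71 and 6.84 FPKM there and at 25.7, 23.7 and 32.7 FPKM in knockouts (log2 change 1.96, SE 0.14, adjusted p by limma = 0.00028). Lars charges leucine and also serves as a leucine sensor for growth signalling. Its level was 13.0, 14.5 and 16.7 FPKM in controls and 51.2, 48.8 and 65.1 FPKM in knockouts (log2 change 1.86, SE 0.16, adjusted p by limma = 0.00041). Yars, for tyrosine, stood at 7.83, 9.17 and 7.86 FPKM in controls and 33.0, 26.3 and 32.9 FPKM in knockouts (log2 change 1.83, SE 0.14, adjusted p by limma = 0.00031). For valine, Vars had 9.03, 7.46 and 6.48 FPKM in controls and 22.1, 32.1 and 28.7 FPKM in knockouts (log2 change 1.78, SE 0.18, adjusted p by limma = 0.00067). None of these 4 had a knockout library as low as any control. Aars, the alanyl enzyme, had 10.7, 11.9 and 10.8 FPKM in controls and 34.8, 35.8 and 44.8 FPKM in knockouts (log2 change 1.74, SE 0.13, adjusted p by limma = 0.00034). Iars, for isoleucine, had 11.1, 11.1 and 11.7 FPKM in controls and 31.9, 34.4 and 45.7 FPKM in knockouts (log2 change 1.66, SE 0.15, adjusted p by limma = 0.00050). Both were likewise free of overlap, with knockout replicate 3 the highest.

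Of the remaining cytosolic enzymes, Mars (methionine), Tars (threonine), Wars (tryptophan), Rars (arginine) and Hars (histidine) rose by 1.53, 1.43, 1.42, 1.42 and 0.86 on the log2 scale, each with knockouts above every control (limma adjusted p = 0.0010, 0.0011, 0.0025, 0.0015 and 0.0041). In RefSeq the ends of Mars and of Ddit3, which encodes the stress factor CHOP, overlap by 71 bases, and whether strand was used in the quantification is unknown. Ddit3 stood at 11.4, 13.2 and 16.7 FPKM in controls and 75.7, 75.8 and 106 FPKM in knockouts, so some fragments at the overlap could count for either gene. Other members have longer overlaps of whole gene spans, among them Aars with Ddx19b (3974 bases) and Farsb with Sgpp2 (2332 bases). The mitochondrial Fars2 shares 20270 bases with the noncoding Gm40912. The part of these overlaps in the values was not tested. Groups did not overlap for 16 of the 20 cytosolic enzymes, all of them higher in the knockout, beside 23.6% of all loci tested (52.3% in either direction). Of the 16 that rose, 15 passed the test under every alternative tried, the exception being Farsb.

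**Figure D2:**
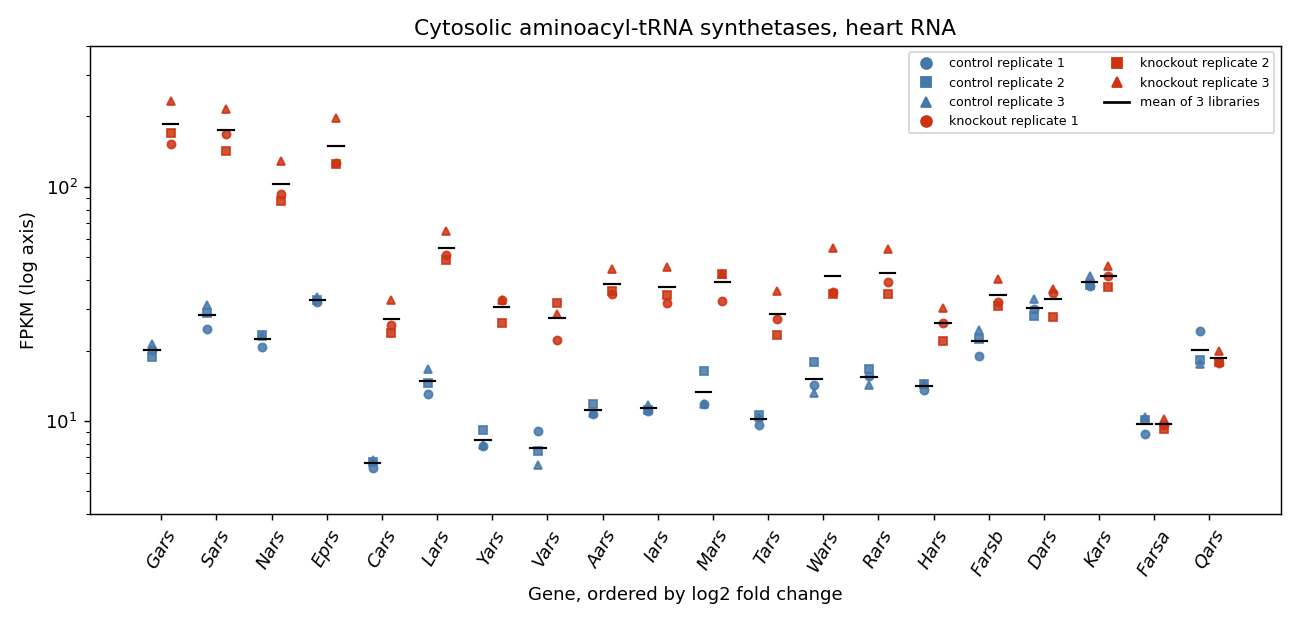
FPKM of the 20 cytosolic synthetases (vertical log axis) in each of the 3 control (blue) and 3 knockout (red) libraries, with a bar at the mean of 3, ordered by log2 fold change. Gars in knockouts reaches 233 FPKM, while for Dars, Kars, Farsa and Qars the red and blue points overlap.

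Besides Kars, 3 cytosolic enzymes did not pass the test. Qars charges glutamine and has no mitochondrial counterpart. It stood at 24.3, 18.3 and 17.6 FPKM in controls and 17.7, 17.9 and 19.99 FPKM in knockouts, and the groups overlapped (log2 change -0.10, 95% interval -0.45 to 0.25, adjusted p by limma = 0.64). The sign turned without control replicate 1 (0.046), the highest of the controls, and with scaling to one sum (0.13). Dars, for aspartate, stood at 30.2, 28.1 and 33.1 FPKM in controls and 35.1, 27.7 and 36.7 FPKM in knockouts (log2 change 0.11, 95% interval -0.23 to 0.45, limma adjusted p = 0.57). For Qars, Dars and Kars the upper ends of the intervals lie below the fitted change of each of the 16 enzymes that rose.

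The cytosolic phenylalanyl enzyme is built of 2 kinds of subunit, and these differed. Farsa, the alpha subunit, stood at 8.77, 10.1 and 10.4 FPKM in controls and 9.62, 9.22 and 10.2 FPKM in knockouts (log2 change -0.0088, 95% interval -0.28 to 0.26, limma adjusted p = 0.96), with a sign that turned with scaling to one sum (0.22), with median-of-ratios scaling (0.026) and without control replicate 2 or 3 or knockout replicate 2. Farsb, the beta subunit, stood at 19.0, 22.3 and 24.5 FPKM in controls and 32.1, 31.1 and 40.4 FPKM in knockouts and rose (log2 change 0.64, SE 0.15, adjusted p by limma = 0.017). That call was lost without control replicate 1 or 2, and the adjusted p was 0.0012 to 0.066 over the 16 alternatives. The ratio of Farsb to Farsa was 2.17, 2.21 and 2.36 in controls and 3.33, 3.37 and 3.97 in knockouts. Every knockout was above every control in this ratio, which was chosen after the values were seen. Its log2 difference was 0.65 (SE 0.090), with an exact two-sided permutation p of 0.10, the smallest that 3 against 3 libraries can give.

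In the cytosol Eprs, Iars, Lars, Qars, Mars, Kars, Rars and Dars are held together in the multisynthetase complex by Aimp1, Aimp2 and Eef1e1, and the other 12 genes encode enzymes outside it. Of the 8 complex enzymes 5 rose and 3 did not pass, with a median log2 fold change of 1.47. Of the 12 outside it 11 rose and 1 did not pass, with a median of 1.76. Over all loci tested 16.1% rose, and the difference between enzymes inside and outside the complex was not tested. The scaffold proteins had fitted changes below 1 on the log2 scale. Aimp1 stood at 30.2, 31.4 and 30.7 FPKM in controls and 36.6, 34.4 and 44.5 FPKM in knockouts (log2 change 0.31, SE 0.13, adjusted p by limma = 0.10). Aimp2 stood at 12.3, 13.2 and 12.0 FPKM and 19.1, 13.9 and 22.2 FPKM (log2 change 0.52, SE 0.18, adjusted p by limma = 0.054). In both the knockouts lay above every control without passing the test, and the adjusted p over the 16 alternatives was 0.0078 to 0.23 for Aimp1 and 0.0029 to 0.14 for Aimp2. Each passed with scaling to one sum, with quantile normalization, with array weights and without knockout replicate 2 (0.39 and 0.70), and Aimp2 also with median-of-ratios scaling. Eef1e1 stood at 7.23, 9.53 and 6.60 FPKM in controls and 16.3, 9.46 and 14.4 FPKM in knockouts and passed (log2 change 0.73, SE 0.22, adjusted p by limma = 0.039), although knockout replicate 2 was below control replicate 2. The Eef1e1 call was lost without control replicate 1 or 3 or knockout replicate 1 or 3 and with no filter on low values, with an adjusted p of 0.0038 to 0.13 over the alternatives. Tarsl2 shares its locus (XLOC_033718) with Tm2d3, so the value belongs to both genes. The shared locus stood at 21.6, 25.1 and 25.5 FPKM in controls and 17.2, 13.6 and 14.002 FPKM in knockouts and fell (log2 change -0.67, SE 0.14, adjusted p by limma = 0.0086), whereas Tars rose.

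Among mitochondrial enzymes the 3 that passed the test fell. Cars2, for cysteine, fell the most. On chromosome 8, 11514017 to 11550781, it stood at 13.0, 13.4 and 14.4 FPKM in controls and 6.49, 6.61 and 7.25 FPKM in knockouts (log2 change -0.95, SE 0.11, adjusted p by limma = 0.0010). The Cars2 call held under every alternative, with an adjusted p of 8.1e-05 to 0.0080. Hars2, for histidine, stood at 8.49, 8.05 and 9.94 FPKM in controls and 6.29, 5.85 and 4.53 FPKM in knockouts (log2 change -0.63, SE 0.15, adjusted p by limma = 0.017). Fars2, the single-chain mitochondrial phenylalanyl enzyme, stood at 25.8, 24.6 and 24.6 FPKM in controls and 16.4, 13.3 and 19.2 FPKM in knockouts (log2 change -0.62, SE 0.15, adjusted p by limma = 0.017). The groups did not overlap for either gene, yet both calls were lost in some alternatives. Fars2 did not pass with scaling to one sum or without any one of the 3 controls (adjusted p 0.0012 to 0.079 over the alternatives), and Hars2 not with scaling to one sum or without control replicate 3 (0.012 to 0.13).

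The other mitochondrial enzymes with large fitted changes did not pass. Sars2, for serine, stood at 4.67, 3.95 and 4.38 FPKM in controls and 3.66, 2.98 and 2.67 FPKM in knockouts (log2 change -0.43, SE 0.15, adjusted p by limma = 0.053), and its adjusted p over the alternatives was 0.037 to 0.42. Mars2, for methionine, stood at 2.08, 2.23 and 2.28 FPKM and 1.57, 1.27 and 1.79 FPKM (log2 change -0.41, SE 0.15, adjusted p by limma = 0.077). Ears2, for glutamate, stood at 4.69, 5.25 and 6.14 FPKM and 4.24, 3.10 and 4.65 FPKM (log2 change -0.39, SE 0.17, adjusted p by limma = 0.12). For these 3 each knockout was below each control. Aars2, for alanine, stood at 6.47, 8.41 and 7.00 FPKM in controls and 7.07, 4.34 and 5.14 FPKM in knockouts (log2 change -0.39, SE 0.19, adjusted p by limma = 0.14), and Iars2, for isoleucine, at 26.6, 26.1 and 28.8 FPKM and 19.6, 16.6 and 27.1 FPKM (log2 change -0.38, SE 0.18, adjusted p by limma = 0.14). In both, 1 knockout library lay within the control range, replicate 1 for Aars2 and replicate 3 for Iars2. Aars2 passed without knockout replicate 1, Mars2 with array weights (adjusted p 0.021 to 0.35 over the alternatives), and Iars2 with array weights and without knockout replicate 3. In all, the groups did not overlap for 6 of the 16, all lower in the knockout, beside 28.7% of all loci tested.

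Yars2, Lars2, Nars2, Vars2, Wars2, Tars2, Pars2 and Rars2, for tyrosine, leucine, asparagine, valine, tryptophan, threonine, proline and arginine, had overlapping groups and log2 fold changes from -0.32 (Lars2) to 0.24 (Rars2). Nars2, Vars2, Wars2 and Tars2 turned from below 0 to above it with scaling to one sum, Tars2 did so also without knockout replicate 2, and Pars2 turned below 0 without control replicate 2 or knockout replicate 1. Lars2 passed with array weights (-0.51) and without knockout replicate 2 (-0.50), whose value of 2.22 FPKM was within the control range of 2.06 to 2.29 FPKM while the other knockouts had 1.26 and 1.497 FPKM. Rars2 was widely spread among knockouts, with 14.1, 10.0 and 19.3 FPKM against 11.6, 12.4 and 11.3 FPKM in controls (95% interval -0.27 to 0.75 for its log2 fold change). In controls the order ran from Iars2 (27.1 ± 1.44 FPKM, SD, n = 3) and Fars2 (25.0 ± 0.676) down to Mars2 (2.195 ± 0.107), Lars2 (2.15 ± 0.125) and Pars2 (2.13 ± 0.462), and the last 3 did not differ beyond their spread.

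**Figure D3:**
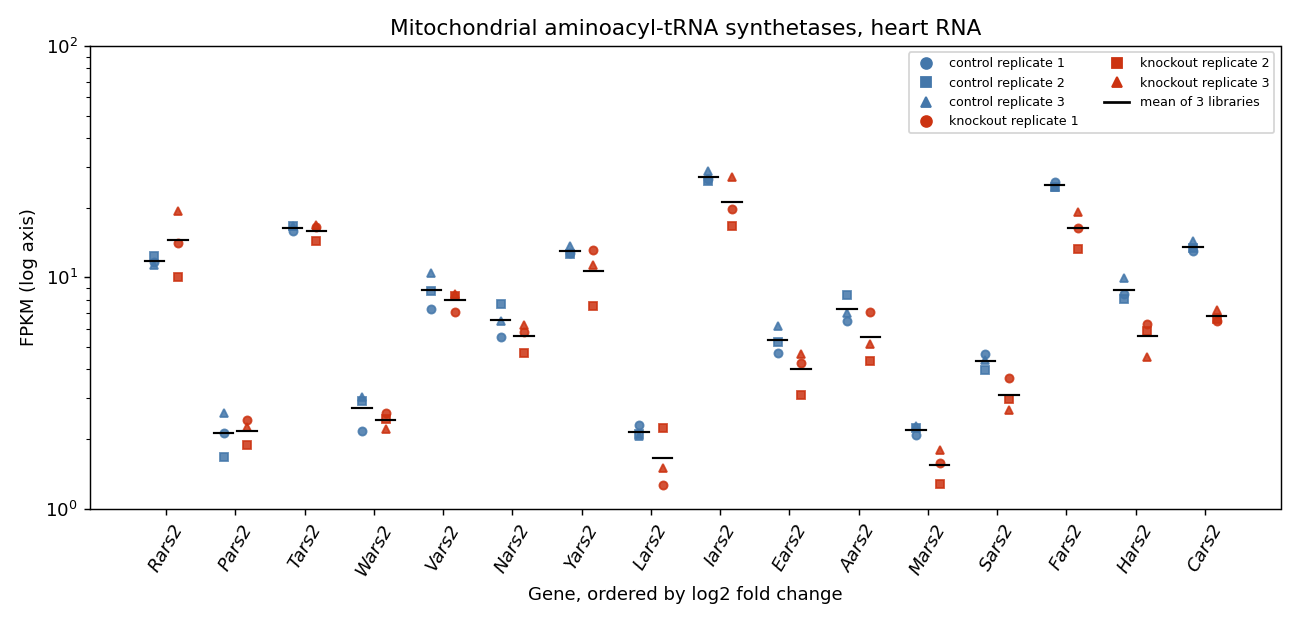
FPKM of the 16 mitochondrial synthetases (vertical log axis) in each of the 3 control (blue) and 3 knockout (red) libraries, with a bar at the mean of 3, ordered by log2 fold change. Cars2 and Hars2 at the right have every red point below every blue one, and Rars2 at the left spreads from 10.0 to 19.3 FPKM in knockouts.

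Setting each cytosolic enzyme beside the mitochondrial enzyme for the same amino acid gave 17 pairs, with Eprs and Fars2 entering 2 pairs each. The balance moved toward the cytosolic enzyme in 17 of 17, with every knockout ratio above every control ratio. The log2 difference of the ratio ranged from 0.61 (SE 0.15) for Farsa to Fars2 up to 3.02 (SE 0.29) for Sars to Sars2, with a median of 2.05. For each of the 17 pairs the exact two-sided permutation p was 0.10, the smallest that 3 against 3 libraries can give, so no pair could pass 0.05. Pairs are not independent, since all were measured in the same 6 libraries.

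In 6 pairs the cytosolic gene was below its mitochondrial counterpart in all 3 controls, and in 5 of these it was above it in all 3 knockouts. Cars to Cars2 changed most among these, with Cars higher and Cars2 lower in the knockout. Its ratio was 0.484, 0.502 and 0.476 in controls and 3.96, 3.58 and 4.51 in knockouts, a log2 difference of 2.91 (SE 0.10). Yars to Yars2 went from 0.612, 0.726 and 0.575 to 2.51, 3.50 and 2.91. Iars to Iars2 went from 0.418, 0.426 and 0.407 to 1.62, 2.07 and 1.69. Both pairs thus crossed 1 in every library. Tars to Tars2 and Farsb to Fars2 crossed it too, with differences of 1.47 (SE 0.13) and 1.26 (SE 0.14). Farsa stayed below Fars2 in all libraries, at 0.340, 0.411 and 0.421 in controls and 0.588, 0.695 and 0.530 in knockouts, with little change in Farsa and lower Fars2.

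Where the cytosolic gene already exceeded its counterpart in every control, 10 pairs, the excess grew. Sars exceeded Sars2 5.32, 7.33 and 7.13-fold in controls and 45.9, 47.5 and 80.8-fold in knockouts. Eprs exceeded Pars2 15.2, 19.6 and 13.1-fold and 52.4, 66.6 and 88.2-fold, and Ears2 6.86, 6.26 and 5.53-fold and 29.7, 40.3 and 42.6-fold. Eprs to Pars2 was the highest ratio of all pairs in each library. The ratio of Nars to Nars2 was 3.76, 3.04 and 3.57 in controls and 16.2, 18.7 and 20.8 in knockouts, and that of Lars to Lars2 5.69, 6.94 and 8.12 and 40.7, 22.0 and 43.5. Aars/Aars2, Mars/Mars2, Wars/Wars2 and Rars/Rars2 had log2 differences of 2.13, 1.93, 1.55 and 1.17. Hars and Hars2 are neighbours on chromosome 18 whose RefSeq spans overlap by 4 bases, and they moved apart. Hars to Hars2 stood at 1.60, 1.78 and 1.44 in controls and 4.16, 3.74 and 6.73 in knockouts, with Hars higher and Hars2 lower. Vars to Vars2 lay on both sides of 1 in controls (1.24, 0.853 and 0.618) and above it in knockouts (3.12, 3.86 and 3.41).

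**Figure D4:**
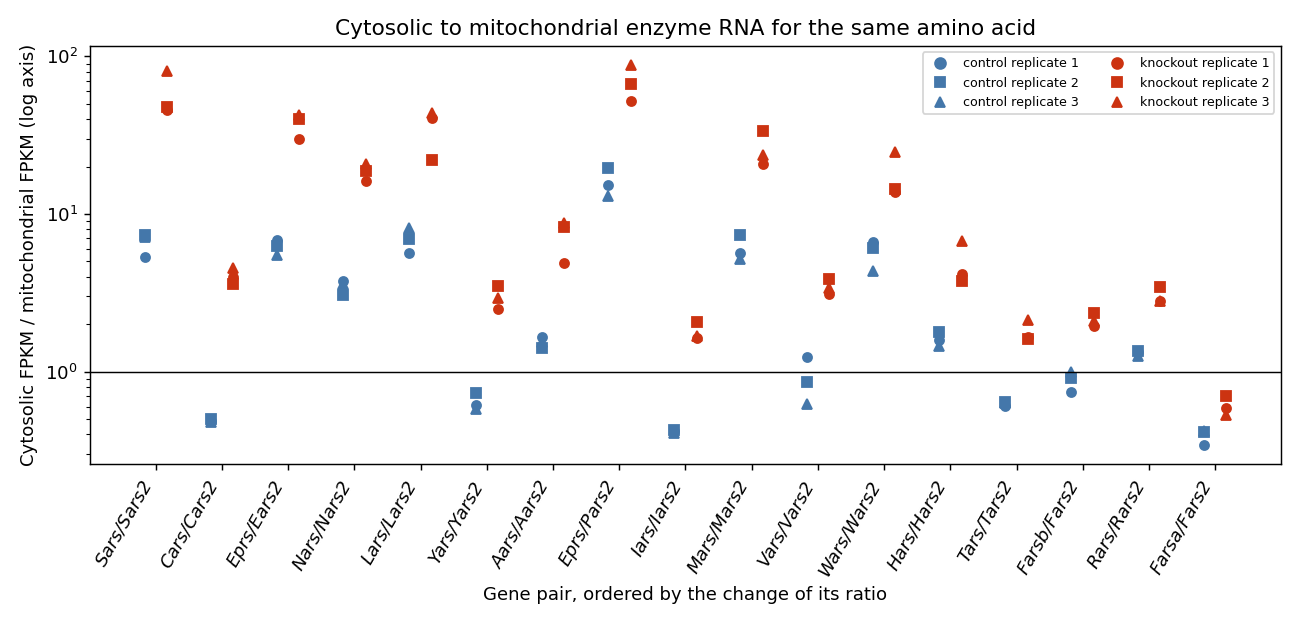
Ratio of cytosolic to mitochondrial FPKM for the 17 pairs (vertical log axis, line at 1) in each control (blue) and knockout (red) library, ordered by the change of the ratio. Red points lie above blue ones in all 17 pairs, from Sars/Sars2 at the left to Farsa/Fars2 at the right.

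Of 26 other genes that finish, proofread or deliver charged tRNAs 5 rose and 6 fell, with a median log2 fold change of 0.061. These shares are near those of all loci tested, 16.1% higher and 19.5% lower. On the mitochondrial side 3 of 8 fell, beside 19.5% of all loci, and 1 rose, beside 16.1%. Tufm, the mitochondrial elongation factor that brings charged tRNAs to the ribosome, stood at 30.6, 37.9 and 32.5 FPKM in controls and 17.6, 12.2 and 16.5 FPKM in knockouts (log2 change -1.11, SE 0.17, adjusted p by limma = 0.0028). Its exchange factor Tsfm fell by 0.63 on the log2 scale. Qrsl1, a subunit of the amidotransferase that makes mitochondrial glutaminyl-tRNA, fell by 0.66, while its partners Gatb and Gatc (-0.43 and 0.18) did not pass. Trnt1, which adds CCA ends to tRNAs of both compartments, rose by 0.95.

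On the cytosolic side 4 of 18 rose and 3 fell, again near the 16.1% and 19.5% of all loci. Xpot, which exports tRNAs from the nucleus, stood at 5.50, 6.90 and 6.58 FPKM in controls and 19.6, 21.0 and 24.9 FPKM in knockouts (log2 change 1.71, SE 0.14, adjusted p by limma = 0.00039). The 2 forms of elongation factor 1 alpha, which carries charged tRNAs to the ribosome, moved oppositely. Eef1a1, the form of most tissues, whose locus also carries the name Gm26377, stood at 309, 284 and 325 FPKM in controls and 1122, 1967 and 1482 FPKM in knockouts (log2 change 2.28, SE 0.24, adjusted p by limma = 0.00079). Eef1a2, the form of muscle and neurons, stood at 343, 357 and 341 FPKM in controls and 234, 155 and 219 FPKM in knockouts (log2 change -0.80, SE 0.19, adjusted p by limma = 0.016). Eef1a1 thus lay below Eef1a2 in every control and above it in every knockout. Eefsec, the elongation factor for selenocysteinyl-tRNA, rose by 0.72 on the log2 scale, whereas Pstk, the kinase of the same pathway, fell by 0.64. The locus shared by Aarsd1, an alanine-editing protein, with Ptges3l and Gm27029 fell by 0.69. The count of genes that fell on the full list of 26 was 2 without control replicate 1, 2 without control replicate 2 and 4 without control replicate 3, and with scaling to one sum 11 rose.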

How the data were processed

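Of 12 samples, 6 were analysed here: total RNA libraries of 3 control and 3 knockout hearts, grouped by genotype as labelled. Libraries were made with TruSeq random priming after Ribo-Zero depletion, per the labels' protocols. The deposited values are FPKM, 1 per locus and library, per the file headers. The submitters' processing notes name bedtools, Picard 1.23, SAMtools 1.3, HISAT2 2.0.1, Cuffdiff, StringTie 1.1.0, HISAT 0.1.6 and Cufflinks 2.2.1, and the builds mm10 and GRCm38. Tool roles, annotation, scaling between libraries and strand use remain not given in the sources used here.

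Members were matched by symbol, splitting names at commas. Of the 40, 39 matched RefSeq GRCm38.p6 by symbol and 1 (Mars, now Mars1) by synonym. FPKM are not counts, so limma 3.58.1 (R 4.3.3, mean-variance trend, two-sided) was fitted on log2(FPKM + 0.5) over 12181 loci with Benjamini-Hochberg adjustment. The fit was tested on simulated data drawn from the means and spreads of those loci. It recovered 56% of 100 loci changed 2-fold and 96% of 100 changed 4-fold, and 6.17% of its calls were unchanged loci. The changed loci were drawn from those with a control mean above 1 on the log2(FPKM + 0.5) scale, and no others were changed. In the data 35.7% of loci were called, so these rates need not hold there. Ratios of paired genes were compared by exact permutation over libraries. Relative depth was read from the most frequent ratio of values of low noncoding and pseudogene loci. Alternatives were pseudocounts of 0.1 and 1, no filter, 4 scalings, no trend, array weights, a replicate block and each library left out. One scaling, with mtDNA loci removed first, was added after seeing the data. The members, lists and motifs were chosen with earlier results of these data known. Library values are given for Prorp, Gars, Kars, Eprs, Qars, Farsa, Farsb, the 10 cytosolic and 8 mitochondrial members with the largest absolute change, all members that went against their set, and the scaffold proteins and Tarsl2, and the rest are summarised. Those of Lars2, Rars2, Ddit3 and the other tRNA genes were chosen after their values were seen. Some items are not reported here.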

Additional observations from a re-analysis of the deposited data

How the results depend on the processing

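Of 640 member values under 16 alternatives, 583 kept their direction and side of the threshold, 16 lost a call, 21 gained one and 20 changed sign, all of the last in genes not called. The number of cytosolic enzymes that rose was 15 or 16 with any 1 library left out. It was 17 with scaling to one sum, with or without mtDNA loci removed first, and 16 in the other alternatives. The 136 pair ratios recomputed with other pseudocounts or with 1 library left out kept their direction and moved by less than 1 pooled SD. For libraries left out this was fixed in advance and says nothing of stability. Groups that do not overlap keep their direction, and dropping 1 of 3 values cannot shift a mean that far. Scaling to one sum gave 3229 loci higher and 1400 lower, or 3378 and 1282 with mtDNA loci removed first, against 1966 and 2377. With 1 library left out the counts were 1212 to 2153 and 1409 to 2389. Mitochondrial enzymes that fell numbered 1 and 1 with these scalings, 6 with array weights and 1 to 5 with 1 library left out. Scaffold proteins that rose numbered 3 with both scalings, 3 with quantile normalization and with array weights, 2 with median-of-ratios scaling, 0 with no filter, and 0 to 3 with 1 library left out. Other tRNA genes that rose numbered 11 and 11 with the scalings and 9 with array weights, and those that fell 2 with mtDNA loci removed and 2 to 7 with 1 library left out. With these 2 scalings Farsa turned to 0.22 and 0.25, Qars to 0.13 and 0.16, Tars2 to 0.18 and 0.22, Vars2 to 0.086 and 0.12, Wars2 to 0.067 and 0.10 and Nars2 to 0.00056 and 0.032, and Farsa to 0.026 with median-of-ratios scaling. With 1 library left out Farsa ran from -0.080 to 0.036, Qars from -0.18 to 0.046, Tars2 from -0.082 to 0.027 and Pars2 from -0.10 to 0.16. The cause of these changes was not tested.

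Replicate numbers are shared across genotypes but did not pair the libraries: deviations of same-numbered libraries correlated at -0.083, -0.064 and -0.0063, and no library of the 6 correlated best with its own number. With the replicate block 1536 loci were higher and 1807 lower, 16 cytosolic enzymes rose, 3 mitochondrial enzymes fell and 0 scaffold proteins rose, since Eef1e1 no longer passed. Depth is not known in reads, so values of a few FPKM (Lars2, Mars2, Pars2, Wars2) carry a counting error that cannot be stated.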

Other observations

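The knockout libraries held a common order across most cytosolic enzymes. Knockout replicate 3 had the highest value of the 3 knockouts for 17 of the 20 cytosolic genes, among them Gars, Sars, Nars and Eprs, and knockout replicate 2 the lowest for 14. Vars, Mars and Yars were the exceptions to the first. For the mitochondrial enzymes replicate 3 was highest for 9 of 16 and replicate 1 for 6, and replicate 2 was lowest for 10. The summed FPKM of all loci had the same order, 516068 in knockout replicate 3, 466993 in replicate 1 and 456493 in replicate 2. Whether the order of the enzymes is one of whole libraries was not tested. Relative to the mitochondrial sum, the cytosolic sum was 2.25, 2.28 and 2.21 times as high in the controls and 8.08, 9.53 and 9.95 times in the knockouts. In this ratio replicate 2 lay between the other knockouts, and the controls lay within a narrow range.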
